A study of Homo sapiens with 4 samples.

Results

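Cadherin and tight junction genes were followed through an RNA immunoprecipitation experiment with an antibody against the splicing factor RBM39. The cells were Huh7, a human line established from a hepatocellular carcinoma. The 9 genes were chosen by name: CDH1, CDH2, OCLN and CLDN1 encode membrane proteins of the junctions, and CTNNA1, CTNNB1, CTNND1, JUP and TJP1 encode the catenins and the scaffold ZO-1 on their cytoplasmic side. All 9 were found in the count table among 56303 features and passed the filter of at least 10 counts in at least 2 libraries, as did 19210 features in all. The 4 libraries were an input and an RBM39 immunoprecipitate (IP) from Huh7 cells with a control hairpin (shControl), and an input and an IP from Huh7 cells given a plasmid with a hairpin against RBM39 (shRBM39). Each group was 1 library, and no IP with a control antibody was analysed here. Recovery below is the ratio of IP over input, which therefore holds any RNA that the antibody or beads carry without RBM39. The labels do not say whether the cells were selected or cloned.

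Adherens junctions hold epithelial cells together through cadherins, calcium-dependent adhesion proteins that bind each other between neighbouring cells. The cadherin tail binds beta-catenin or plakoglobin and the delta catenin, and alpha-catenin ties the complex to actin. Tight junctions seal the space between cells, which in hepatocytes closes off the bile canaliculus, through claudins and occludin held by ZO scaffolds. Cadherins, claudins and occludin are made on ribosomes at the endoplasmic reticulum and enter its membrane, while catenins and ZO proteins are made in the cytosol. Beta-catenin is in addition the transcriptional effector of Wnt signalling.

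The total count ran from 20858382 in the shControl input to 45812488 in the shRBM39 IP. Levels below are CPM (counts scaled by TMM and library depth), and log2 ratios carry a 95% interval of counting error only, as reads without molecular identifiers are not separate molecules. A gene was called higher or lower when it differed at least 2-fold and this interval excluded equality; no p-value is given for such differences between single libraries. The transcript of RBM39 itself measured 404 CPM in the input of shControl cells and 370.3 CPM in that of shRBM39 cells, so the inputs hardly showed the knockdown, and culture names are those of the labels. In the IPs RBM39 had 1036 and 2221 CPM. Of the hepatocyte markers, ALB had at least 29767 counts in each library. The 7 hepatocyte or hepatoma markers summed, scaled to library totals, to 8634 CPM in the input and 7470.4 in the IP of shControl cells, and to 8985 and 3810.0 in those of shRBM39 cells. This sum was lowest in the shRBM39 IP, as were ALB, AFP, APOA1, SERPINA1 and EPCAM taken singly. TTR was not lowest there. HNF4A was highest there, at 396 CPM of the library total, with 211 to 326 CPM elsewhere. The sum thus does not stand for each marker, and its part in the results was not tested. Summed markers reached 4.25 to 8.72 CPM for endothelial cells (4 genes), 2.61 to 5.17 for fibroblasts or stellate cells (4 genes) and 6.68 to 16.5 for leukocytes (3 genes, nearly all CD68). The defining genes PTPRC and CDH5 had 0 to 2 counts and DCN had 0 in all libraries.

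The first comparison asked how far junction mRNAs were recovered with the RBM39 antibody, and whether mRNAs of membrane proteins differed from those of their cytoplasmic partners. The mRNAs of all 4 membrane proteins were below their input level in the shRBM39 IP, and 3 of them in the shControl IP, while those of the 4 catenins were above their input level in both IPs. ZO-1 lay near its input level in both. At the 2-fold rule JUP was called higher in the shControl IP, OCLN and CLDN1 were called lower in the shRBM39 IP, and the other members were not called. Over all features, 7.7% were called higher and 11.3% lower in shControl cells, and 5.29% higher and 9.0% lower in shRBM39 cells, so 1 and 2 calls among 9 genes are no result about the group.

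**Figure D1:**
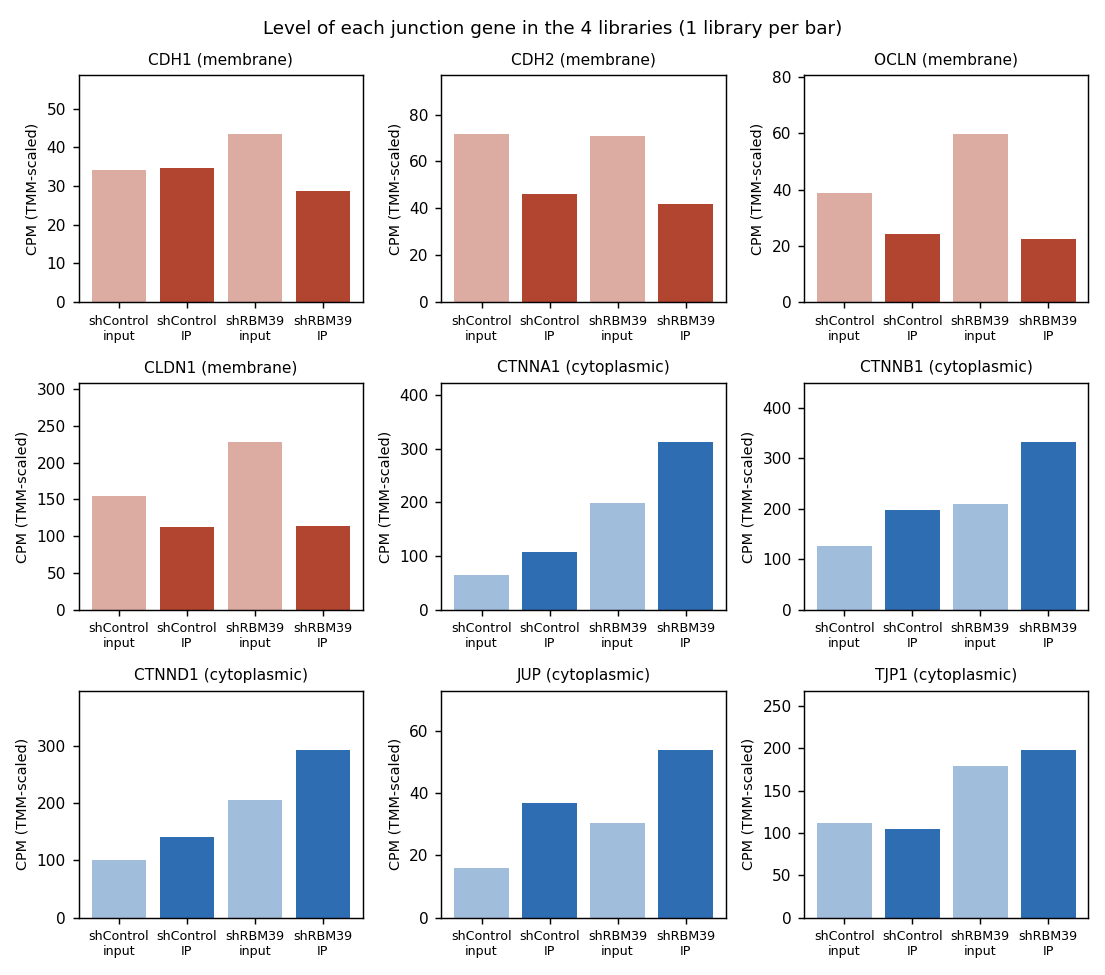
Level of each gene in CPM (TMM-scaled) in input and IP of each culture, 1 library per bar, with inputs in pale and IPs in full colour, red for membrane and blue for cytoplasmic proteins; each panel has its own axis from 0, and there are no error bars because there are no replicates. The IP bar is below the input bar for OCLN, CLDN1 and CDH2 in both cultures and above it for the 4 catenins in both.

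CDH1, which encodes E-cadherin, the classical cadherin of epithelia, stands on chromosome 16 (68737292 to 68835537). In shControl cells it had 34.2 CPM in the input and 34.6 in the IP, and in shRBM39 cells 43.5 and 28.6. The shControl libraries were thus alike, and the shRBM39 IP was the lowest of the 4. Its log2 recovery was 0.01 (-0.11 to 0.14) in shControl cells and -0.60 (-0.73 to -0.48) in shRBM39 cells. CDH1 was the only membrane gene of the 4 whose interval included its input level in shControl cells.

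CDH2, which encodes N-cadherin, the cadherin of neural and mesenchymal cells that hepatocytes also carry, lies on chromosome 18 (27932879 to 28177130). In the same order it had 71.7, 46.0, 70.8 and 41.9 CPM. Both inputs were alike and both IPs were lower than either. Its log2 recovery was -0.64 (-0.74 to -0.55) in shControl and -0.75 (-0.85 to -0.65) in shRBM39 cells, or 1.56 and 1.69 times below input.

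OCLN encodes occludin, a membrane protein of the tight junction that crosses the membrane several times (chromosome 5, 69492547 to 69558104). Its levels were 38.7, 24.0, 59.8 and 22.5 CPM. The IPs stood close together although the inputs did not. The log2 recovery was -0.69 (-0.82 to -0.55) in shControl cells and -1.41 (-1.53 to -1.29) in shRBM39 cells. In the shRBM39 cells the IP level of OCLN was thus 2.66 times below its input, the lowest recovery of the 9 genes, and 4.60% of all features compared were lower still. Part of OCLN has a near-identical copy in the genome, and how reads shared with it were counted is not known.

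CLDN1 encodes claudin-1, which forms the seal of the tight junction strand (chromosome 3, 190305707 to 190322446). Its levels were 154 and 112 CPM in the input and IP of shControl cells and 228 and 113 CPM in those of shRBM39 cells. As for OCLN, the IPs were nearly equal and the inputs were not. Its log2 recovery was -0.46 (-0.52 to -0.40) in shControl and -1.01 (-1.07 to -0.95) in shRBM39 cells. The call in shRBM39 cells was at the threshold and was lost without the filter on low counts, where the value was -0.89. The neighbour CLDN16 overlaps CLDN1 in RefSeq but had at most 88 counts per library.

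Of the cytoplasmic genes, JUP encodes plakoglobin, the catenin shared by adherens junctions and desmosomes (chromosome 17, 41754609 to 41786711). Input and IP stood at 16.0 and 36.8 CPM in shControl cells and at 30.4 and 53.9 CPM in shRBM39 cells. Each IP was above its own input. The log2 recovery was 1.20 (1.04 to 1.38) in shControl cells, 2.30 times the input and the highest of the 9, and 0.82 (0.70 to 0.95) in shRBM39 cells. In both inputs JUP had the fewest counts of the 9 genes, 344 and 662.

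CTNNB1, for beta-catenin, lies on chromosome 3 (41199505 to 41240443) and had 127, 198, 210.2 and 332 CPM. Its log2 recovery was 0.64 (0.58 to 0.71) in shControl cells and 0.66 (0.61 to 0.71) in shRBM39 cells. The recovery thus hardly differed between the cultures, although both libraries of the shRBM39 culture were higher. CTNNA1, for alpha-catenin, the link to actin (chromosome 5, 138753425 to 138935034), had 65.0, 107, 199 and 313 CPM. Its log2 recovery of 0.72 (0.64 to 0.81) in shControl and 0.65 (0.60 to 0.70) in shRBM39 cells was close to that of CTNNB1 in both cultures.

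CTNND1 encodes the delta catenin that binds the cadherin tail near the membrane and steadies cadherins there (chromosome 11, 57761802 to 57819540). It had 100.0, 141, 205 and 293 CPM, and a log2 recovery of 0.49 (0.42 to 0.56) in shControl and 0.51 (0.47 to 0.56) in shRBM39 cells. The values of the cultures were alike. A read-through transcript, TMX2-CTNND1, overlaps it and had 406 to 770 counts per library against 2155 to 12116 for CTNND1, so some reads cannot be assigned with certainty.

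TJP1 encodes ZO-1, the scaffold that binds claudins and occludin and ties them to actin (chromosome 15, 29699367 to 29969049). Its levels were 112, 105, 179 and 198 CPM. Unlike the catenins, it lay near its input level in both IPs, with a log2 recovery of -0.09 (-0.16 to -0.02) in shControl and 0.15 (0.09 to 0.20) in shRBM39 cells. The sign in shControl cells turned without the filter on low counts (0.003). The pseudogene HMGN2P5, with 401 to 695 counts, lies within TJP1.

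**Figure D2:**
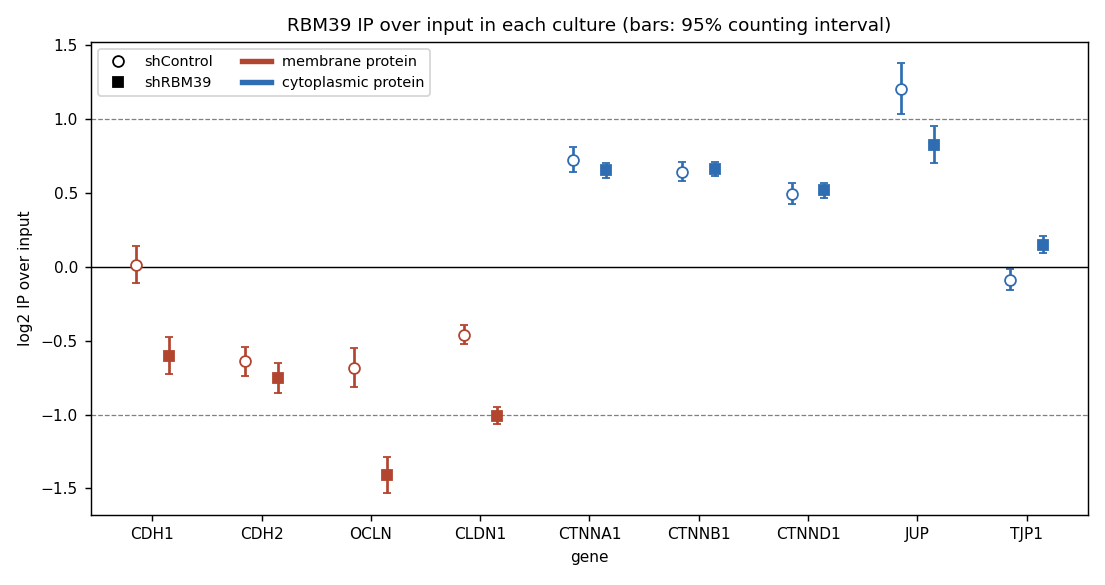
Log2 IP over input (vertical axis) for each of the 9 genes, with open circles for shControl and filled squares for shRBM39 and bars for the 95% counting interval; dashed lines mark 2-fold. In the shRBM39 culture the highest membrane gene is at -0.60 and the lowest cytoplasmic gene at 0.15, while in shControl cells CDH1 (0.01) lies above TJP1 (-0.09).

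Set side by side, the median log2 recovery was -0.55 for the 4 membrane genes and 0.64 for the 5 cytoplasmic genes in shControl cells, where the median of all features was -0.01. In the shRBM39 cells the medians were -0.88 and 0.65, with 0.02 over all features. The ranges overlapped in shControl cells, -0.69 to 0.01 against -0.09 to 1.20, and lay apart in shRBM39 cells, -1.41 to -0.60 against 0.15 to 0.82. The members were chosen knowing their class and with earlier results of these data known, and no test over the genes was made.

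Counted within each library, reads of the 4 membrane genes were 41.6% (40.8% to 42.4%, exact Clopper-Pearson) of all reads on the 9 genes in the shControl input and 27.0% (26.5% to 27.4%) in the shControl IP. They were 32.8% (32.2% to 33.4%) in the shRBM39 input and 14.8% (14.5% to 15.1%) in the shRBM39 IP. This share does not depend on how libraries are scaled. It was lower in each IP than in its own input, and lower in each shRBM39 library than in the matching shControl library. From the shControl to the shRBM39 input the membrane sum rose from 299 to 402 CPM and the cytoplasmic sum from 419 to 824 CPM. CLDN1 alone gave 3327 of the 6443 membrane reads in the shControl input and 4962 of 8748 in the shRBM39 input.

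Partner genes were then compared within the same libraries, where scaling cancels as well. The log2 recovery of CDH1 minus that of CTNNB1 was -0.63 (-0.77 to -0.49) in shControl cells and -1.27 (-1.40 to -1.13) in shRBM39 cells, so E-cadherin mRNA was recovered 1.55 and 2.40 times less than the mRNA of its binding partner. For CDH2 against CTNNB1 the differences were -1.28 (-1.40 to -1.17) and -1.42 (-1.53 to -1.31). Against CTNND1 they were -0.48 (-0.62 to -0.33) and -1.12 (-1.25 to -0.99) for CDH1, and -1.13 (-1.25 to -1.01) and -1.27 (-1.38 to -1.16) for CDH2. Both cadherins were thus recovered less than both catenins in either culture, and the distance to CTNNB1 differed between the cultures by -0.64 (-0.83 to -0.44) for CDH1 and by -0.13 (-0.29 to 0.03) for CDH2.

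The tight junction pairs gave the same order. OCLN minus TJP1 was -0.60 (-0.75 to -0.45) in shControl and -1.56 (-1.69 to -1.42) in shRBM39 cells. CLDN1 minus TJP1 was -0.37 (-0.47 to -0.28) and -1.16 (-1.24 to -1.08). The cultures differed in this distance by -0.96 (-1.16 to -0.76) for OCLN and by -0.78 (-0.91 to -0.66) for CLDN1.

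For comparison, a pair of cadherins and a pair of catenins were set against each other. CDH1 was recovered above CDH2 by 0.65 (0.50 to 0.81) in shControl cells and by 0.15 (-0.01 to 0.31) in shRBM39 cells, where a difference was not detectable at this depth. CTNNB1 minus JUP was -0.56 (-0.74 to -0.38) in shControl and -0.16 (-0.30 to -0.03) in shRBM39 cells. The cultures differed by -0.50 (-0.73 to -0.28) for the cadherin pair and by 0.40 (0.17 to 0.62) for the catenin pair. In shControl cells the cadherin pair thus stood 1.57 times apart and the catenin pair 1.47 times. The chosen pairs of a membrane and a cytoplasmic gene stood 1.29 to 2.43 times apart there, so these distances overlapped. In shRBM39 cells the 2 pairs stood 1.11 and 1.12 times apart. The chosen pairs of a membrane and a cytoplasmic gene stood 2.17 to 2.94 times apart in those cells. Pairs that were not chosen need not follow this. The log2 recovery of CDH1 in shRBM39 cells (-0.60) was nearer to that of TJP1 (0.15) than to that of OCLN (-1.41).

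**Figure D3:**
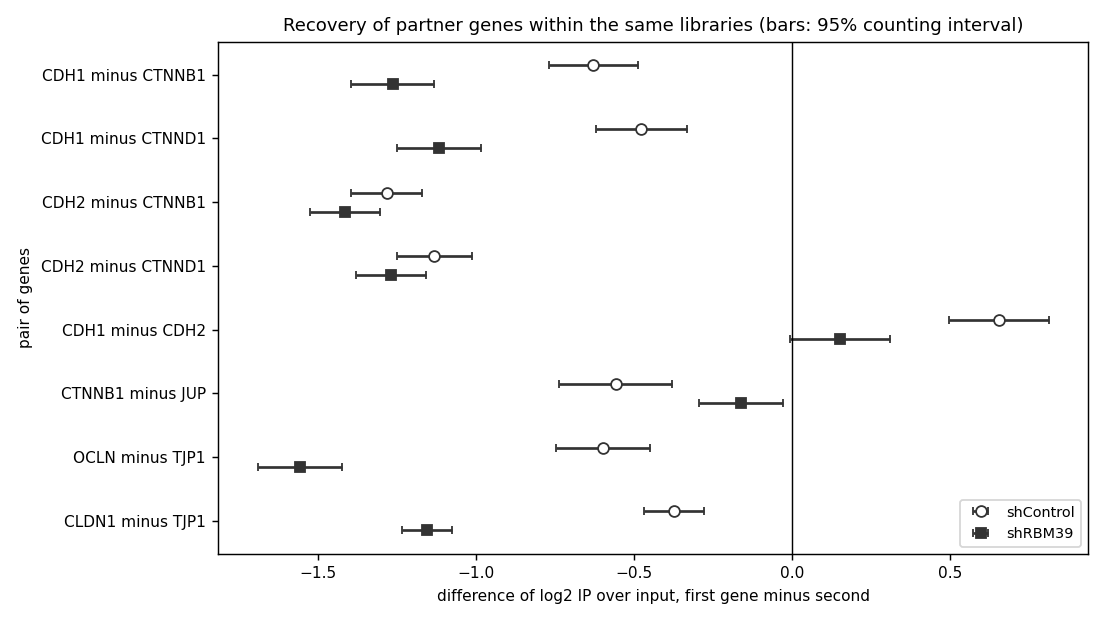
Difference of log2 IP over input between the genes of 8 pairs, first gene minus second (horizontal axis), with open circles for shControl, filled squares for shRBM39 and bars for the 95% counting interval. The 6 pairs of a membrane and a cytoplasmic gene lie below 0 in both cultures, from -0.37 for CLDN1 minus TJP1 in shControl cells to -1.56 for OCLN minus TJP1 in shRBM39 cells.

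The difference in recovery, shRBM39 minus shControl, was negative for the 4 membrane genes on the log2 scale, with -0.72 (-0.90 to -0.55) for OCLN, -0.62 (-0.79 to -0.44) for CDH1, -0.55 (-0.63 to -0.46) for CLDN1 and -0.11 (-0.25 to 0.02) for CDH2. For the last of these no difference was detectable at this depth. Of the cytoplasmic genes, JUP had -0.38 (-0.59 to -0.17) and TJP1 0.24 (0.15 to 0.33), and CTNNA1 (-0.07), CTNNB1 (0.02) and CTNND1 (0.02) had intervals that included 0. With libraries scaled to their totals the values of CTNNB1 and CTNND1 turned to -0.17. CDH1 was above 0 in shControl and below 0 in shRBM39 cells, as were 9.7% of all features, and TJP1 went the other way, as did 11.5%. None of the 9 was called at 2-fold in this contrast, where 4.39% of all features were called higher and 2.74% lower.

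Input and IP both enter this difference. The IP levels of OCLN (24.0 and 22.5 CPM) and CLDN1 (112 and 113 CPM) hardly differed between the cultures, while their inputs were higher in shRBM39 cells, at 59.8 against 38.7 CPM and 228 against 154 CPM. CDH1 had both a higher input and a lower IP in the shRBM39 culture. For CTNNA1, CTNNB1 and CTNND1, input and IP were higher in the shRBM39 culture by like factors. For JUP the input ratio was the larger.

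A test of IP against input used all 4 libraries: edgeR's quasi-likelihood test with a term for culture, 1 residual degree of freedom, and p-values adjusted over all 19210 features by Benjamini-Hochberg. The 2 cultures had different hairpins and were not replicates of each other. A true difference in recovery between them counts as error here, and the p-values do not measure the spread among like cultures. JUP (log2 1.01, adjusted p = 5.36e-05), CTNNA1 (0.69, 0.00251), CTNNB1 (0.65, 0.00448) and CTNND1 (0.50, 0.0202) were higher in the IP by edgeR, each in 2 of 2 cultures. OCLN (-1.05, adjusted p = 8.5e-05), CDH2 (-0.70, 0.00095) and CLDN1 (-0.73, 0.00227) were lower by the same edgeR test, again in 2 of 2 cultures. CDH1 (-0.30, edgeR adjusted p = 0.162) and TJP1 (0.03, 0.9) did not pass. Over all features 19.2% were called higher and 17.6% lower by this test, against 4 of 9 and 3 of 9 members. Without the culture term none of the 9 passed in edgeR, with 0 calls over all features and 4143 at an unadjusted p under 0.05. CTNND1 also missed the threshold with libraries scaled to totals (edgeR adjusted p = 0.0745).

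The next comparison asked how the starting RNA of the cultures differed. The mRNAs of 8 of the 9 genes were more abundant in the shRBM39 input than in the shControl input, CDH2 being the exception. CTNNA1 was called higher at 3.06 times (log2 1.62, 1.53 to 1.70), above 98.0% of all features, and CTNND1 at 2.05 times (log2 1.03, 0.96 to 1.11). Over all features 5.1% were called higher and 5.74% lower, against 2 of 9 and 0 of 9 members. The CTNND1 call was lost with libraries scaled to totals (0.95).

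The other cytoplasmic genes were below the 2-fold rule in the inputs, with log2 ratios of 0.93 (0.74 to 1.12) for JUP, 0.73 (0.66 to 0.80) for CTNNB1 and 0.68 (0.60 to 0.75) for TJP1. The membrane genes followed with 0.63 (0.50 to 0.76) for OCLN, 0.56 (0.50 to 0.63) for CLDN1, 0.34 (0.20 to 0.49) for CDH1 and -0.02 (-0.12 to 0.08) for CDH2. In this order each gene from CTNND1 to CLDN1 had an interval that overlapped that of the next, while CTNNA1, CDH1 and CDH2 each lay apart from their neighbours. The class medians were 0.45 for membrane and 0.93 for cytoplasmic genes, with -0.01 over all features. In such bulk RNA, more RNA per cell and a larger share of cells that hold it cannot be told apart.

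Cadherins were compared with catenins in the inputs too. The log2 input ratio of CDH2 minus that of CTNND1 was -1.05 (-1.18 to -0.93), and minus that of CTNNB1 it was -0.75 (-0.87 to -0.63). For CDH1 these differences were -0.69 (-0.85 to -0.53) and -0.39 (-0.54 to -0.23). The tight junction genes kept closer to their scaffold, with -0.05 (-0.19 to 0.10) for OCLN against TJP1 and -0.12 (-0.21 to -0.02) for CLDN1 against TJP1. CDH1 minus CDH2 was 0.36 (0.19 to 0.54).

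**Figure D4:**
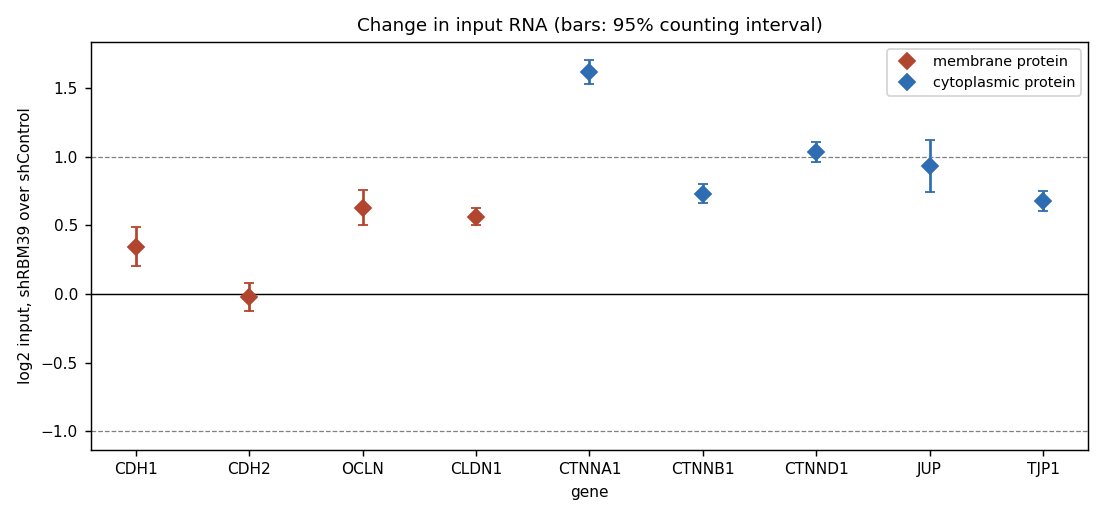
Log2 ratio of the shRBM39 input over the shControl input (vertical axis) for each gene, red for membrane and blue for cytoplasmic proteins, with bars for the 95% counting interval and dashed lines at 2-fold. CTNNA1 (1.62) is highest and CDH2 (-0.02) lowest, and the 5 cytoplasmic genes are all at 0.68 or more.

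Since most of these transcripts were higher together in the shRBM39 input, the 250 bases before the most upstream start site were read from RefSeq (GRCh38.p14) for the 7 of 9 genes that matched. The genes with the highest and the lowest input ratio, CTNNA1 (chr5:138753175-138753424, plus strand) and CDH2 (chr18:28177131-28177380, minus strand), are shown for contrast, and OCLN (chr5:69492297-69492546, plus strand) and TJP1 (chr15:29969050-29969299, minus strand) because they hold the E-box bound by the cadherin repressors of the SNAI and ZEB families. Capitals mark the letters CAGGTG or CACCTG (that E-box) and CCAAT or ATTGG (the CCAAT box), searched on both strands, and each line runs 5′ to 3′ along the gene.
CTNNA1: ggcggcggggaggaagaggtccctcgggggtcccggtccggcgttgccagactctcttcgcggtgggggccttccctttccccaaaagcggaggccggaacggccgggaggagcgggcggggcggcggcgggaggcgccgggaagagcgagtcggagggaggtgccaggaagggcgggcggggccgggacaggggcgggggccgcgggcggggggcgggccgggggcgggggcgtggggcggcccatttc
CDH2: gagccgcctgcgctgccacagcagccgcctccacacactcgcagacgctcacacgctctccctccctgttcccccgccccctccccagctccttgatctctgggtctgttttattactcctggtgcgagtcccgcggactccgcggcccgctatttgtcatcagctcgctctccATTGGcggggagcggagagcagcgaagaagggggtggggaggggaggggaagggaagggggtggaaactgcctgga
OCLN: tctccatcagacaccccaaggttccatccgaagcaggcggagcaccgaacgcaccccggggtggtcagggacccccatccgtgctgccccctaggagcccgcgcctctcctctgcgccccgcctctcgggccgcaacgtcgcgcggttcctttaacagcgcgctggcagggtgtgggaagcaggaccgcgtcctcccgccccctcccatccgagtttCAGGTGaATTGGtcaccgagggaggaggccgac
TJP1: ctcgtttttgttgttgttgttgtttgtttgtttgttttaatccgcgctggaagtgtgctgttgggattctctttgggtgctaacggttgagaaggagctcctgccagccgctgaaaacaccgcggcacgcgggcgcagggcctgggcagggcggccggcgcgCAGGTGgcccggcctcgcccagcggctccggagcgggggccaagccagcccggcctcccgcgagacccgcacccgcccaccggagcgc

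CDH1 and CTNND1 had no matching window and were not searched. The E-box was found in 2 of the 7 windows, OCLN and TJP1, and in 17.5% of 35116 RefSeq windows of that length. The CCAAT box was found in 3 of 7, CDH2, OCLN and JUP, against 32.0% of all windows, and GGAATG or CATTCC, the letters bound by TEAD factors, in 0 of 7, against 11.9%. GC content was 80.0% in the CTNNA1 window, 74.4% in CTNNB1, 68.8% in OCLN and CLDN1, 66.8% in TJP1, 66.0% in CDH2 and 63.6% in JUP, with a median of 58.0% over all windows. Of the 3 catenins matched, CTNNA1 had the highest and JUP the lowest GC content, both with an input ratio above that of CTNNB1. These matches describe letters in a window and not sites in use. CTNNA1 and TJP1 had 4 start sites each and CDH2, OCLN and JUP had 2, of which only the most upstream was read. The windows over all genes included every start site.

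Other genes of the same junctions were taken from lists of proteins by their place. The lists were chosen with earlier results of these data known and are no independent check. Of 85 listed membrane genes outside the 9, 56 passed the filter on low counts, and of 47 listed cytoplasmic genes 44 did. The cytoplasmic genes had a median log2 recovery of 0.24 in shControl and 0.44 in shRBM39 cells, with 31 and 37 of 44 above 0, and 5 and 8 called higher against 0 and 0 called lower. The membrane genes had medians of -0.50 and -0.40, with 21 and 22 of 56 above 0, 2 and 4 called higher and 10 and 16 called lower. Among genes with at least 1000 counts summed over the libraries, 9 and 6 of 23 membrane genes and 29 and 34 of 41 cytoplasmic genes were above 0. Over all features 7.7% were called higher and 11.3% lower in shControl cells, and 5.29% and 9.0% in shRBM39 cells.

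**Figure D5:**
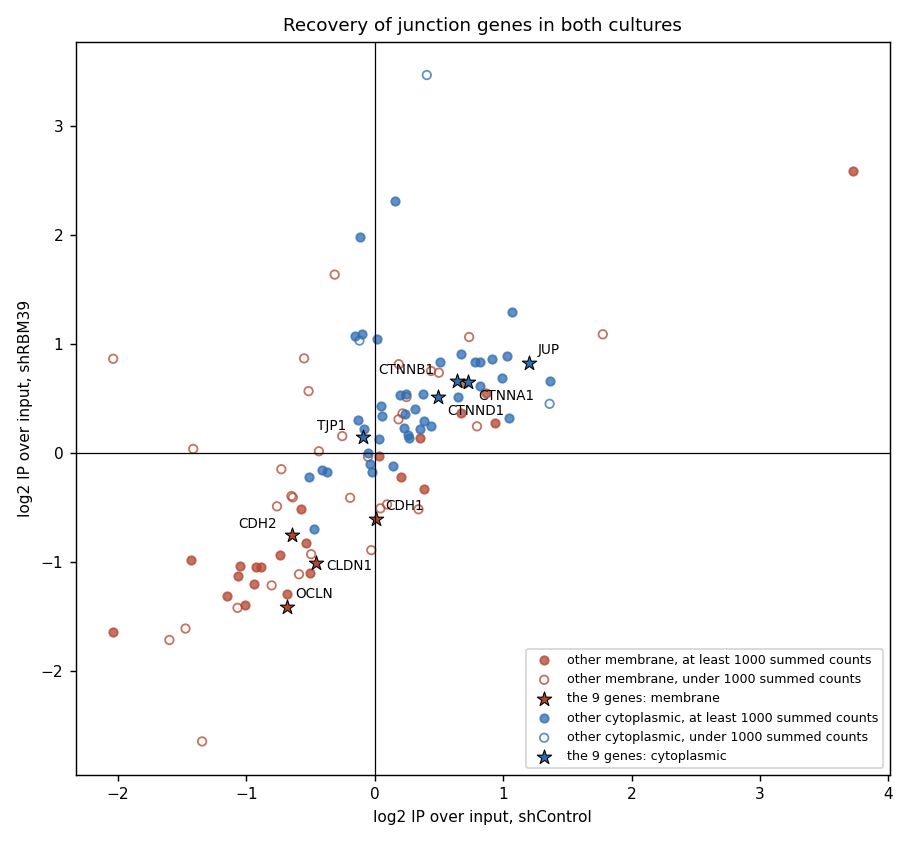
Log2 IP over input in shControl (horizontal axis) and shRBM39 cells (vertical axis) for 56 other membrane (red) and 44 other cytoplasmic (blue) junction genes, filled where at least 1000 counts were summed over the libraries, with the 9 genes as stars. The red filled points lie mostly at the lower left, PCDH20 (3.72 and 2.59) lies farthest from them, and the blue points mostly above 0 in shRBM39 cells.

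Among other membrane proteins, CXADR, a receptor of the tight junction, was lower in both IPs (log2 -2.04 and -1.64). EPCAM, an epithelial adhesion molecule, was lower in both (-1.05 and -1.04), as was CEACAM1 (-1.01 and -1.40), an adhesion molecule of the canalicular membrane. CDH19 (-1.60 and -1.71) and the desmosomal cadherin DSC2 (-1.15 and -1.32) were called lower in both as well. The giant cadherin FAT1 was called lower in shControl cells (-1.43) and stood at -0.98 in shRBM39 cells. NECTIN3 (-1.20), PVR (-1.10), ALCAM (-1.05), CLDND1 (-1.05), CLDN16 (-1.11) and FAT3 (-1.42) were called lower in shRBM39 cells and stood between -1.07 and -0.50 in shControl cells. CDHR2, with 16 to 97 counts, was called higher in the shRBM39 IP (1.63) and stood at -0.31 in shControl cells. Of 7 nectins and related adhesion proteins compared, 2 were called lower in shControl and 5 in shRBM39 cells, and 0 higher. Some well-counted membrane genes were above their input in both IPs without a call at the 2-fold rule. These included NECTIN1 (0.87 and 0.55), CLDN23 (0.94 and 0.28), CELSR1 (0.67 and 0.37) and CELSR2 (0.70 and 0.64). By the edgeR test over both cultures these were higher in the IP (adjusted p = 0.00371, 0.00921, 0.0114 and 0.00587 in that order). The same test called 3 of 29 other cadherins higher and 8 lower, and 2 and 6 of 20 tight junction membrane genes. Of 7 nectins and related proteins it called 1 higher and 5 lower. Over all features it called 19.2% higher and 17.6% lower. PCDH20, which had 22 and 60 counts in the inputs, was higher in both IPs (3.72 and 2.59) and is uncertain, because a clone-named feature of the table has nearly the same counts. In the difference between the cultures 5 of 56 membrane genes were called higher and 1 lower, against 4.39% and 2.74% of all features. CDHR2 (1.95) and PCDH1 (1.08) were among those called higher and PCDH20 (-1.13) was called lower, each with a count under 40 in an input.

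Among cytoplasmic proteins, the ZO-1 relative TJP3 (log2 1.03 and 0.89) lay above TJP1 in both cultures and was called higher in shControl cells. Symplekin (SYMPK), found both at tight junctions and in the machinery that forms mRNA ends, was called higher in shControl cells (1.04) and stood at 0.32 in shRBM39 cells. The delta catenin relative ARVCF (1.37) and the desmosomal plaque protein PKP3 (1.36) were called higher in shControl cells, and CAMSAP3, which anchors microtubules at the adherens junction, in both (1.07 and 1.29). CTNNAL1, listed with the catenins, was below its input without a call at the 2-fold rule, at -0.47 in shControl and -0.70 in shRBM39 cells. By the edgeR test over both cultures it was lower in the IP (log2 -0.58, adjusted p = 0.00593). That test called 3 of the 7 other catenins and plakophilins higher and 1 lower. Cingulin (CGN) and paracingulin (CGNL1), which bind ZO proteins and actomyosin, were higher in the IP of shRBM39 cells (2.31 and 1.09) and stood at 0.16 and -0.10 in shControl cells. The difference of recovery was 2.15 (2.01 to 2.29) for CGN, 2.10 (1.91 to 2.29) for supervillin (SVIL), 1.20 (1.13 to 1.26) for CGNL1 and 1.03 (0.90 to 1.15) for LIMA1. The scaffolds AMOT (1.22) and MAGI2 (1.15) were also called higher in this contrast, and in the shRBM39 IP (1.07 and 1.03). SVIL and LIMA1 were called higher in that IP too (1.98 and 1.04). In all, 6 of 44 cytoplasmic genes were called higher and 0 lower in the difference, against 4.39% and 2.74% of all features. In contrast the difference for TJP1 was 0.24.

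In the inputs, many adherens junction adaptors were higher in shRBM39 cells. Of 12 compared, 7 were called higher and 0 lower, with a median of 1.05, against 5.1% higher and 5.74% lower over all features. Among the 7 were VCL (1.16), the vinculin that binds alpha-catenin, RAPGEF2 (1.15), LIMA1 (1.14) and PLEKHA7 (1.12). Of 7 other catenins and plakophilins, PKP2 (1.54) and desmoplakin, DSP (1.20), were called higher. Of 25 ZO and tight junction scaffolds 4 were called higher, among them CGNL1 (1.29), AMOTL2 (1.26) and CGN (1.02), and 1 was called lower, PATJ (-1.04). The membrane genes of the lists had a median of -0.01 in the inputs, with 8 of 56 called higher, and 7 lower. The 8 included the liver-intestine cadherin CDH17 (1.53), FAT3 (2.68, from 14 to 93 counts), PCDH9 (1.07), CDHR3 (1.05) and MARVELD3 (1.10), a tight junction protein.

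Regulators of the junctions were taken from further lists. Of the transcription factors that act on CDH1, TCF3 was called higher in both IPs (log2 1.37 and 1.14), and ZEB1 lower in the shControl IP (-1.30), with -0.47 in shRBM39 cells. In the inputs ZEB1 stood at 0.02 and ZEB2, with 38 and 138 counts, was called higher at 1.83 (1.32 to 2.41). Of 11 genes of beta-catenin turnover, FBXW11, a subunit of the ubiquitin ligase that marks beta-catenin, was called lower in the shControl IP (-1.09), and no member was called in the shRBM39 IP. Of 11 genes of cadherin shedding and trafficking, ADAM10 (-1.10), a protease that sheds E-cadherin, and NCSTN (-1.19), a subunit of gamma-secretase, were called lower in the shRBM39 IP. Other membrane proteins of that list were not called at the 2-fold rule, such as FURIN (0.92 and 0.68) and ADAM15 (0.61 and 0.28). The lipid kinase PIP5K1C, which binds E-cadherin, was called higher in both (1.22 and 1.09).

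For 4 members the features with the most similar pattern were sought by Euclidean distance over the 3 log2 ratios (recovery in each culture and the input ratio) among 10309 others with at least 1000 summed counts. UBE4A (distance 0.07), C12orf76 (0.08) and DMKN (0.10) were nearest to CDH1, and TMEM39A (0.04), TEX261 (0.05) and ZNF655 (0.06) to CDH2. BIN3 (0.05), RBMX (0.05) and PSMC3 (0.08) were nearest to CTNNB1. RP11-1017G21.4 (0.06), AAMDC (0.07) and CEP250 (0.07) were nearest to TJP1. No gene of the 9 was among the nearest 3 of another.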

How the data were processed

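RNA of 4 Huh7 libraries (input and RBM39 IP of shControl and shRBM39 cells, 1 each) was analysed from 1 table of raw counts per gene symbol, which the authors deposited without normalization. The submitters' processing notes name cutadapt 1.9, HISAT2 2.0.4, StringTie 1.3.4d and hg38; for the counting program and strand setting nothing is given in the sources used here. Of counts from 3 to 6, 71.4% to 75.6% were even, so mates of a pair may have been counted singly and counting intervals may be too narrow. The 9 genes, the lists and the comparisons were chosen with earlier results of these data known.

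Features that reached 10 counts in 2 or more libraries were scaled by TMM (edgeR 4.0.16, R 4.3.3). Log2 ratios used counts plus 0.5, with exact conditional (Clopper-Pearson) 95% intervals; intervals of differences came from the counting standard error. Both cover counting error only. IP and input were tested with edgeR's quasi-likelihood test (culture plus fraction, adjusted p under 0.05), with DESeq2 1.42.0 as the alternative. Tested on simulated counts of 19210 features, it found 61 of the 100 simulated 2-fold changes, 95 of the 100 simulated 4-fold changes and 7 unchanged features. The simulated counts had a fixed spread and no difference between the cultures. They therefore checked that the code ran as meant and do not give the rate of false calls in these data. Other alternatives were library totals, DESeq2 size factors, an offset of 5, no filter, counts divided by 2, and no culture term. From the further lists, up to 4 called members per comparison with at least 100 summed counts were named by size. Some listed genes are not reported here by name. The CGN input ratio, the uncalled genes named from the lists and values set beside called ones were chosen after they were seen. For CDH1, CDH2, CTNNB1 and TJP1 the 3 nearest features were named. Coordinates are RefSeq's on GRCh38. Levels of different genes were not compared, since transcript lengths were not used.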

Additional observations from a re-analysis of the deposited data

Results flagged for a closer look

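The recovery of CDH1 and TJP1 had opposite signs in the cultures. CDH1 stood at 0.01 in shControl and -0.60 in shRBM39 cells on the log2 scale, a difference of -0.62. TJP1 stood at -0.09 and 0.15, a difference of 0.24. With 1 library per group, the difference between the cultures was not tested, and the shControl value of CDH1 had an interval that included 0. Of all features, 9.7% were above 0 in shControl and below 0 in shRBM39 cells, and 11.5% the other way round.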

How the results depend on the processing

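Of 180 values of the 9 genes under the 5 alternatives to the pairwise settings, 178 stayed on the same side of the 2-fold rule. The others were CLDN1 in the shRBM39 IP without the filter (-0.89) and CTNND1 in the inputs with library totals (0.95). Scaling cancels in the class differences and partner contrasts, so it tests nothing there; with an offset of 5 the class difference in the inputs went from -0.48 to -0.47. TJP1 recovery in shControl cells turned sign without the filter (0.003), and with library totals the difference between the cultures turned sign for CTNNB1 (-0.17) and CTNND1 (-0.17). Library totals moved the median of all features from 0.02 to -0.09 in shRBM39 recovery and to -0.20 in the difference between the cultures, and changed the counts called there from 843 higher and 526 lower to 570 and 887. Dividing counts by 2 gave 450 and 237. Library totals also changed the counts from 1016 higher and 1729 lower to 718 and 2164 in shRBM39 recovery, from 979 and 1102 to 768 and 1304 in the inputs, and from 1479 and 2173 to 1876 and 1862 in shControl recovery.

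In the test over both cultures, leaving out the culture term ended every call: 0 members and 0 features were called higher, and 0 members and 0 features lower, by edgeR. DESeq2 called 2097 features lower, of 16230 with an adjusted p-value, against 3381 of 19210 in edgeR. It called the same 7 members. The cause was not tested. The labels carry no replicate numbers, and the culture term is what pairs the IP and input of a culture. With 1 library per group no replicate could be left out.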
